A study of Rattus norvegicus with 9 samples.

Results

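Regulator genes of mitochondrial and fatty acid metabolism were followed in cultured heart muscle cells in which the transcription factor TCF7L2 had been raised or targeted. They were chosen by gene symbol and number 10 of the 14607 genes listed in any library: the estrogen-related receptors Esrra, Esrrb and Esrrg, the peroxisome proliferator-activated receptors Ppara and Ppard, the coactivators Ppargc1a and Ppargc1b (PGC-1 alpha and PGC-1 beta), the muscle regulator Perm1, the mitochondrial DNA factor Tfam, and Rxrg, a retinoid X receptor. All 10 were listed in each of the 9 libraries. Per the labels, primary cardiomyocytes of Sprague Dawley rats aged 1 to 2 days were exposed to a lentivirus for 16 h and then kept for 48 h in medium with 10% fetal bovine serum. The lenti-TCF7L2 group (3 libraries) received a virus for TCF7L2 overexpression, the lenti-shTCF7L2 group (3 libraries) one with a short hairpin RNA for TCF7L2 knockdown, and the lenti-NC group (3 libraries) the vector control, in cells labelled wild type. All 3 groups thus carry a lentivirus. The labels give neither the promoter of the virus, the species of the TCF7L2 insert, nor the number of hairpins. Nor do they say whether each replicate was a culture of its own, so p-values measure the spread between these samples, which may be technical.

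The estrogen-related receptors (ERRs) are orphan nuclear receptors that bind a short DNA element and switch on genes of the tricarboxylic acid cycle, the respiratory chain and fatty acid oxidation. PPAR-alpha and PPAR-delta are lipid-activated receptors that bind DNA as pairs with a retinoid X receptor and drive fatty acid uptake and oxidation. The PGC-1 proteins do not bind DNA themselves; they dock on ERRs, PPARs and other factors and recruit the transcription machinery. In the heart this network is known for the rise in oxidative capacity after birth. TCF7L2 binds DNA and works with β-catenin in Wnt signalling.

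Messenger RNA was sequenced to between 15085922 and 16478295 expected counts per library, and 11761 genes entered the tests. Tcf7l2 itself stood at 142, 206 and 85.7 CPM (counts scaled to library size) in the lenti-TCF7L2 libraries, at 25.6, 30.3 and 25.9 CPM in the lenti-shTCF7L2 libraries and at 40.0, 36.4 and 34.1 CPM in the lenti-NC libraries. It was called higher with lenti-TCF7L2 (log2 difference 1.97, edgeR quasi-likelihood adjusted p = 8.46e-04), and its log2 difference of -0.43 with lenti-shTCF7L2 was not called (adjusted p = 0.511). Replicate libraries correlated less well among lenti-TCF7L2 cultures (log2 CPM, Pearson's r down to 0.948) than among lenti-shTCF7L2 or lenti-NC cultures (down to 0.994 in each), and lenti-TCF7L2 replicate 3 stood apart by gene length. Its median log2 difference from the lenti-NC mean was 0.49 over the 1093 genes of up to 1000 bases and -0.98 over the 188 genes above 8000 bases. Summed cardiomyocyte structural markers (11 of 12 listed, with Ttn not listed) ranged from 21692 to 27502 CPM with lenti-TCF7L2, from 47003 to 47586 with lenti-shTCF7L2 and from 48824 to 49690 with lenti-NC. Endothelial markers (10 of 10 listed) summed to 175 to 252 CPM with lenti-TCF7L2, 90.7 to 91.8 with lenti-shTCF7L2 and 86.9 to 110 with lenti-NC, and macrophage markers (6 of 6) to 65.0 to 72.9 CPM with lenti-TCF7L2, 31.9 to 35.1 with lenti-shTCF7L2 and 33.8 to 34.1 with lenti-NC. Fibroblast markers (9 of 9) summed to 44840 to 63894 CPM with lenti-TCF7L2, 51485 to 53827 with lenti-shTCF7L2 and 52194 to 53712 with lenti-NC, and smooth muscle markers (6 of 6) to 6516 to 7725 CPM with lenti-TCF7L2, 6920 to 7106 with lenti-shTCF7L2 and 7218 to 7296 with lenti-NC. Erythroid markers (4 of 5) summed to at most 0.567 CPM with lenti-TCF7L2, 0.858 with lenti-shTCF7L2 and 1.01 with lenti-NC. Of these, 1 erythroid marker was at 0 in all lenti-TCF7L2 libraries.

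The members spanned a wide range of levels, compared here per gene length in FPKM (fragments scaled to gene length and library size). In lenti-NC cultures Esrra led with 37.7 ± 1.41 FPKM (SD, n = 3), followed by Ppard at 34.6 ± 1.38, Esrrg at 23.3 ± 0.835 and Tfam at 21.7 ± 0.462. The PGC-1 genes came next, with Ppargc1b at 14.5 ± 1.46 FPKM and Ppargc1a at 14.5 ± 0.879, and these overlapped. Ppara at 5.12 ± 0.265 FPKM and Perm1 at 4.92 ± 0.230 also overlapped, Esrrb stood at 3.68 ± 0.0529, and Rxrg was last at 0.157 ± 0.0981. Other neighbours in that order did not overlap.

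With lenti-TCF7L2 the order was Ppard at 32.1 ± 1.51 FPKM, Esrra at 31.3 ± 1.59, Tfam at 21.3 ± 5.44, Esrrg at 9.72 ± 5.62, Ppargc1b at 4.32 ± 3.02, Ppargc1a at 4.11 ± 2.55, Perm1 at 2.01 ± 0.131, Ppara at 1.43 ± 0.756, Esrrb at 0.687 ± 0.215 and Rxrg at 0.0767 ± 0.0404 (SD, n = 3 each). Ppard and Esrra overlapped there, as did each neighbouring pair from Esrrg down to Esrrb. With lenti-shTCF7L2 the order began with Esrra at 37.5 ± 2.70 FPKM and Ppard at 37.2 ± 1.60, which overlapped, then Tfam at 20.3 ± 0.521, Esrrg at 19.3 ± 0.195, Ppargc1a at 12.2 ± 0.966 and Ppargc1b at 10.0 ± 1.11. It ended with Esrrb at 4.29 ± 0.431 FPKM, Ppara at 4.17 ± 0.732, Perm1 at 3.36 ± 0.373 and Rxrg at 0.187 ± 0.0513. Here the PGC-1 genes overlapped, and so did Esrrb with Ppara and Ppara with Perm1.

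**Figure D1:**
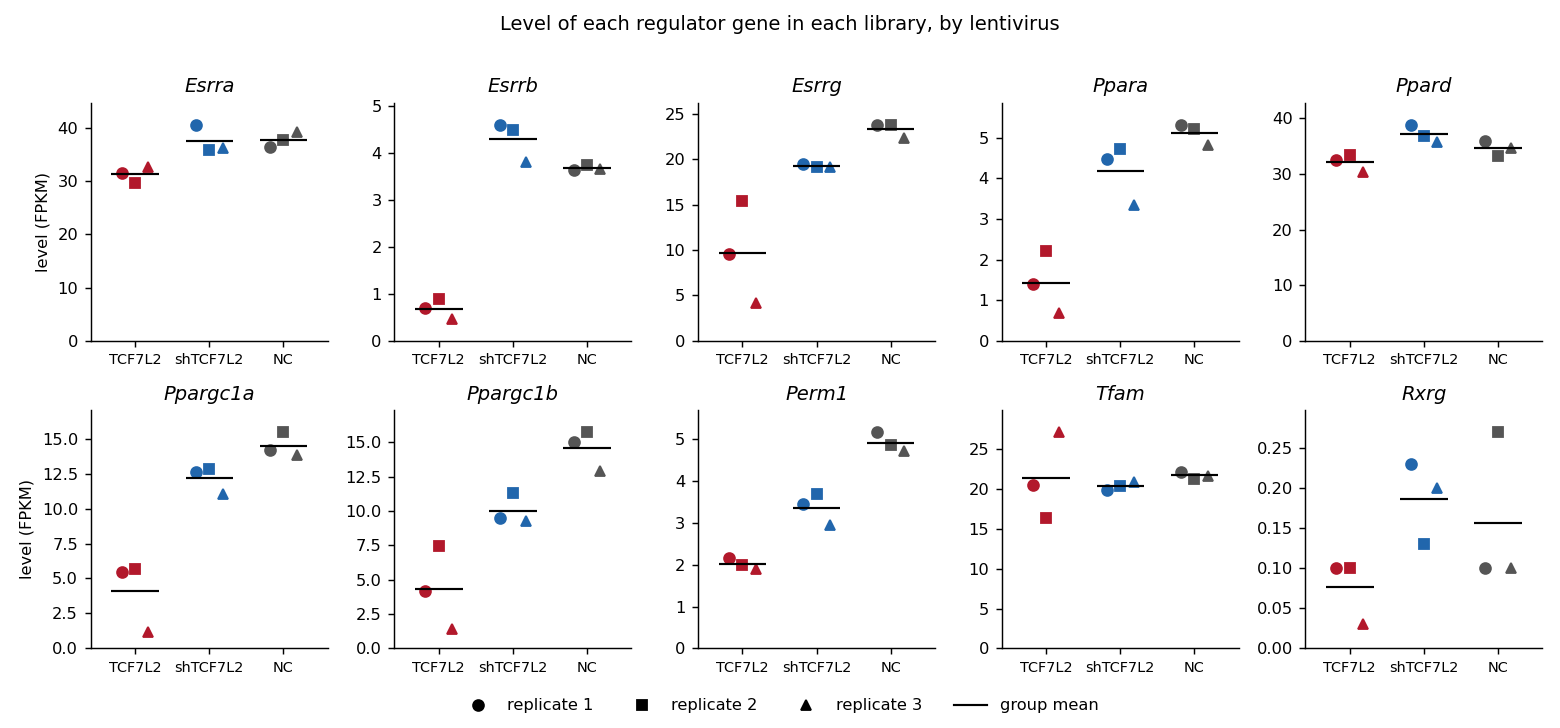
Level of each of the 10 regulator genes (vertical axis, FPKM, from 0) in every library of the lenti-TCF7L2, lenti-shTCF7L2 and lenti-NC groups; symbols mark the replicate and lines the group mean. Esrrb, Esrrg, Ppara, both PGC-1 genes and Perm1 sit lowest with lenti-TCF7L2, whereas the lenti-TCF7L2 values of Tfam, 16.3 to 27.1 FPKM, spread around the other groups.

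Lenti-TCF7L2 against lenti-NC addresses how these genes stand when TCF7L2 is raised. Of the 9 members tested, 7 were lower with lenti-TCF7L2 (Esrra, Esrrb, Esrrg, Ppara, Ppargc1a, Ppargc1b and Perm1), and Ppard and Tfam did not pass. Among all genes tested 13.8% were lower, 18.0% were higher and 31.8% changed in either direction. The 6 called members other than Esrra were at least 2-fold lower, against 3.24% of all genes called with such a fall, and 8 of the 9 lay below lenti-NC in CPM without overlap, against 22.0% of all genes. The median log2 difference was -1.34 over the tested members and 0.03 over all genes tested. These are bulk cultures, so fewer cells of a type and less RNA per cell cannot be told apart. In the same comparison 10 of 11 cardiomyocyte markers were lower, while 9 of 10 endothelial and 4 of 5 tested macrophage markers were higher. Of the fibroblast markers 4 of 9 were higher and 1 was lower (Postn, -0.36, adjusted p = 0.0471, named after its value was seen), and 1 of 6 smooth muscle markers was higher. The part of these cell types in the members' differences was not tested.

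Among the ERRs, Esrrb differed most, and in the edgeR fit over all 9 libraries its log2 difference was the largest of the 9 members tested. Esrrb (Entrez 299210), best known in mice as a factor of pluripotent and trophoblast cells, had 14, 18 and 10 expected counts with lenti-TCF7L2 and 71, 73 and 72 with lenti-NC. The groups stood far apart, and the lenti-NC libraries were nearly equal. Esrrb fell by 2.46 on the log2 scale (SE 0.21, 5.51-fold lower, adjusted p = 9.95e-05).

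Esrrg (Entrez 360896), the ERR known in mice for the switch to oxidative metabolism in the newborn heart, stood at 30.4, 48.6 and 13.2 CPM with lenti-TCF7L2 and at 77.7, 78.2 and 73.3 CPM with lenti-NC. Every lenti-TCF7L2 library lay below every control library, with replicate 3 far below replicate 2. It fell by 1.32 on the log2 scale (SE 0.35, 2.49-fold lower, adjusted p = 0.0214). That call was lost without any 1 of the lenti-NC libraries or without lenti-TCF7L2 replicate 1, and when only the 6 libraries compared were fitted (adjusted p 0.0539 to 0.0645, log2 difference -1.30 to -1.35).

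Esrra (Entrez 293701), the ERR most widely found in oxidative tissues, had 67.8, 63.4 and 70.6 CPM with lenti-TCF7L2 and 80.8, 84.3 and 87.2 CPM with lenti-NC. The groups did not overlap, but the gap was small beside those of the other ERRs. Esrra fell by 0.32 (SE 0.08, adjusted p = 0.0140), a call lost without lenti-NC replicate 3 (adjusted p = 0.0586). The make-up of the ERR transcripts differed accordingly: Esrra held 75.8% ± 11.6 of the summed FPKM of the 3 ERR genes with lenti-TCF7L2, 61.4% ± 1.29 with lenti-shTCF7L2 and 58.3% ± 1.59 with lenti-NC (SD, n = 3 each). That sum was 41.7 ± 4.27 FPKM with lenti-TCF7L2, 61.1 ± 3.15 with lenti-shTCF7L2 and 64.7 ± 0.909 with lenti-NC. These shares and sums were not tested.

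Among the lipid receptors the PPAR-alpha gene fell and the PPAR-delta gene did not pass. Ppara (Entrez 25747), the receptor known for fatty acid oxidation in heart and liver, stood at 2.77, 4.38 and 1.37 CPM with lenti-TCF7L2 and at 10.96, 10.8 and 9.96 CPM with lenti-NC. No lenti-TCF7L2 library came near the control range. Ppara fell by 1.90 on the log2 scale (SE 0.32, 3.73-fold lower, adjusted p = 0.00237).

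Ppard (Entrez 25682), the PPAR of broad expression, had 106, 108 and 99.4 CPM with lenti-TCF7L2 and 121, 112 and 117 CPM with lenti-NC. These ranges did not overlap in CPM, and those in FPKM did (30.4 to 33.4 with lenti-TCF7L2, 33.2 to 35.9 with lenti-NC). The log2 difference of Ppard was -0.16 (95% interval -0.31 to -0.01, adjusted p = 0.103). Ppara made up 4.17% ± 1.98 of the summed FPKM of both PPARs with lenti-TCF7L2, 10.1% ± 1.42 with lenti-shTCF7L2 and 12.9% ± 0.708 with lenti-NC (SD, n = 3 each). Rxrg (Entrez 83574), a retinoid X receptor and thus a candidate partner of the PPARs, had 3, 3 and 1 expected counts with lenti-TCF7L2, 7, 4 and 6 with lenti-shTCF7L2 and 3, 8 and 3 with lenti-NC. At or near a floor of 3 counts, it was set aside by the filter on low counts, and no difference was detectable at this depth.

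Both PGC-1 genes fell with lenti-TCF7L2, to a like extent and with a wide spread. Ppargc1a (Entrez 83516), the inducible coactivator of mitochondrial biogenesis, had 13.2, 13.7 and 2.81 CPM with lenti-TCF7L2 and 35.3, 38.7 and 34.5 CPM with lenti-NC. Replicates 1 and 2 of lenti-TCF7L2 were close together and replicate 3 was far lower, while all 3 lay below the controls. Ppargc1a fell by 1.87 on the log2 scale (SE 0.43, 3.66-fold lower, adjusted p = 0.0107), and by 1.44 without replicate 3 (adjusted p = 1.29e-07).

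Ppargc1b (Entrez 291567), the related coactivator that is more constant in its expression, stood at 13.04, 23.2 and 4.36 CPM with lenti-TCF7L2 and at 48.6, 51.1 and 42.0 CPM with lenti-NC. The 3 lenti-TCF7L2 values were spread widely, all under the control range. Its fall was 1.80 on the log2 scale (SE 0.44, 3.49-fold lower, adjusted p = 0.0141). Ppargc1b fell by 2.45 without lenti-TCF7L2 replicate 2, and was still called without replicate 3 (adjusted p = 2.56e-05). Summed, the PGC-1 genes had 8.43 ± 5.37 FPKM with lenti-TCF7L2, 22.2 ± 1.91 with lenti-shTCF7L2 and 29.0 ± 2.25 with lenti-NC, and Ppargc1a held 48.6% ± 7.29 of that sum with lenti-TCF7L2, 54.9% ± 1.97 with lenti-shTCF7L2 and 49.9% ± 1.58 with lenti-NC (SD, n = 3 each).

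Perm1 (Entrez 313776), a muscle protein that is known in mice to be induced by PGC-1 and ERR and to act with them, had close replicate values. It stood at 8.25, 7.62 and 7.29 CPM with lenti-TCF7L2 and at 20.5, 19.3 and 18.8 CPM with lenti-NC. Neither group spread by more than a small part of the gap. Perm1 fell by 1.34 on the log2 scale (SE 0.11, 2.53-fold lower, adjusted p = 9.31e-05), and stayed called under all 20 alternatives run.

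The upstream sequences of Perm1 and Ppargc1a are shown because they held the matches among the members to the motifs searched. The windows from 250 bases before to 50 after the annotated start were taken from RefSeq (GRCr8, not the build of the counts) for 9 of 10 members (4 windows for Esrrg); Ppard had no entry. Searched on both strands were the ERR element AAGGTCA, its longer form TCAAGGTCA (which contains it), the PPAR and RXR direct repeat (the DR1 consensus, which can hold the ERR element), the TCF/LEF motif CTTTGNN with A or T at each N, and the cAMP response element TGACGTCA, which was added after the sequences were seen. The 250 upstream bases, 5′ to 3′ on the plus strand, with the match in capitals, lie at chr5:172081999-172082248 for Perm1 and at chr14:63634058-63634307 for Ppargc1a.
Perm1 upstream: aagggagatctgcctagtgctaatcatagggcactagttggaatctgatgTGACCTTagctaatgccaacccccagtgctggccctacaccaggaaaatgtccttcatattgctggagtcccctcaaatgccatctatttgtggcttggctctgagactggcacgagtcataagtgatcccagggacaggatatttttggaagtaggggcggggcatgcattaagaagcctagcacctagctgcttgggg
Ppargc1a upstream: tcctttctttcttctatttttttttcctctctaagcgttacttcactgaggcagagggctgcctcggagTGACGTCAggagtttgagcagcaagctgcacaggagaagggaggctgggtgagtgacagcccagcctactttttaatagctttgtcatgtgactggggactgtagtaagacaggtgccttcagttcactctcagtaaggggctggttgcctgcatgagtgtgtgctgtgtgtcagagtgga
In Perm1 the capitals mark the ERR element read on the minus strand, from position -200 relative to the annotated start (chr5:172082049-172082055). In Ppargc1a they mark the palindromic cAMP response element, from position -181 (chr14:63634127-63634134). Of 33469 rat windows of 300 bases, 4.61% held the ERR element, 0.433% its longer form, 0.054% the direct repeat, 17.087% a TCF/LEF motif and 1.829% the cAMP response element. A match describes letters and shows no binding.

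Tfam (Entrez 83474), which packages and transcribes mitochondrial DNA and is a known downstream gene of PGC-1, stood at 29.3, 23.3 and 38.9 CPM with lenti-TCF7L2 and at 32.8, 31.5 and 32.1 CPM with lenti-NC. The lenti-TCF7L2 values fell on both sides of the tight control range. Its log2 difference was -0.07 (95% interval -0.43 to 0.29, adjusted p = 0.743). That value turned with 1 library: without lenti-TCF7L2 replicate 3 Tfam fell by 0.31 (adjusted p = 0.0182), and without replicate 2 the difference was 0.081 (adjusted p = 0.595). With replicate 3 left out, 8 of 9 members were thus lower, against 21.5% of all genes.

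The lenti-TCF7L2 libraries differed among themselves in the same order for several members. Esrrb, Esrrg, Ppara, Ppargc1a and Ppargc1b were each highest in replicate 2 and lowest in replicate 3, as was Tcf7l2 itself (206 CPM in replicate 2, 85.7 CPM in replicate 3). Tfam, with a listed length of 1463 bases, was highest in replicate 3, and Esrrb, the shortest member at 1302 bases, was lowest there. Perm1, the longest member at 3861 bases, differed little. Whether gene length took part in the members' values in replicate 3 was not tested. Relative to the lenti-NC mean, on a log2 scale, Ppargc1a stood at -1.44, -1.39 and -3.62, Ppargc1b at -1.84, -1.01 and -3.39, and Esrrg at -1.33, -0.65 and -2.52. An offset for gene length in each library left the log2 differences of these genes near their values, at -1.89, -1.80 and -1.31, and called the same number of members. The members' falls without replicate 3 were 2.26 for Esrrb, 1.58 for Ppara and 0.97 for Esrrg, all called.

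**Figure D2:**
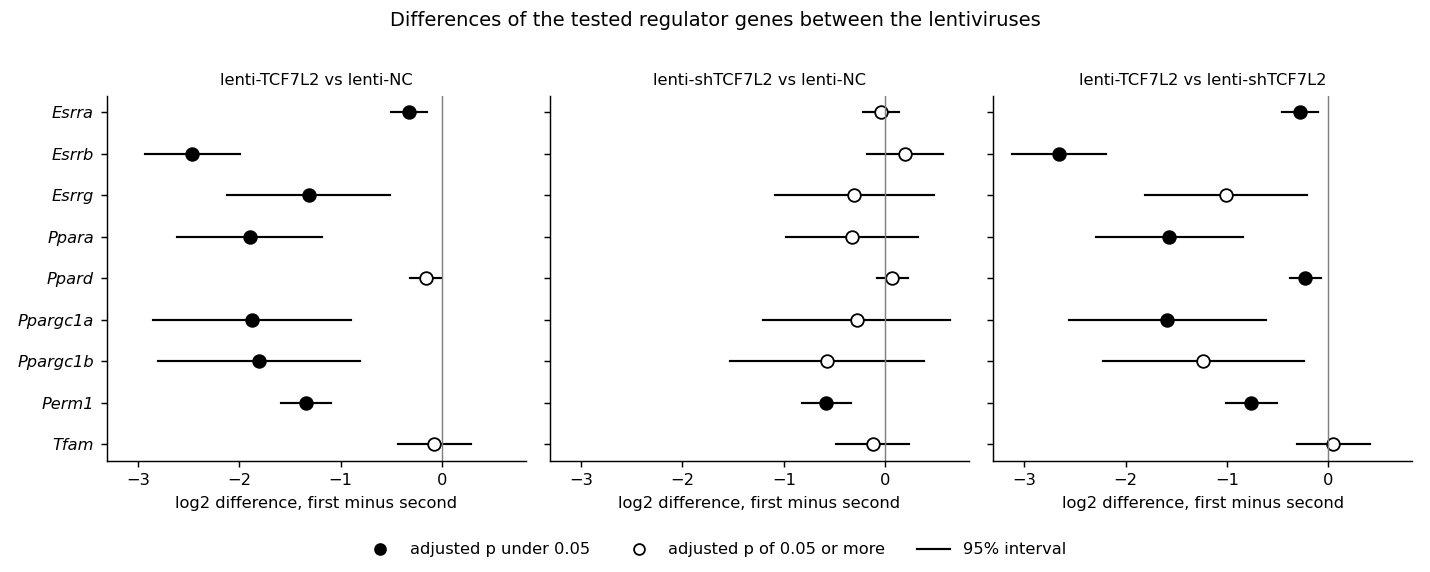
Log2 difference, first group minus second, of the 9 tested regulator genes in the 3 comparisons (points) with its 95% interval (lines); filled points have an adjusted p under 0.05. With lenti-TCF7L2 against lenti-NC 7 points are filled, all left of 0, and with lenti-shTCF7L2 against lenti-NC Perm1 alone is filled, at -0.58.

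In lenti-shTCF7L2 cultures Perm1 was lower than in lenti-NC cultures, and the other 8 tested members did not pass. That is 1 of 9 called lower, against 2.32% of all genes called lower and 3.64% called in either direction. Perm1 had 13.5, 14.2 and 11.5 CPM with lenti-shTCF7L2 and 20.5, 19.3 and 18.8 CPM with lenti-NC. The groups did not overlap, and the hairpin values lay between those of lenti-TCF7L2 and lenti-NC. It fell by 0.58 on the log2 scale (SE 0.11, 1.49-fold lower, adjusted p = 0.0203). The call was lost without any 1 of the 6 libraries compared (adjusted p 0.0675 to 0.0934).

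The hairpin values of the PGC-1 genes lay below the controls without passing the test over all 9 libraries. Ppargc1b stood at 30.3, 35.6 and 29.5 CPM with lenti-shTCF7L2 and at 48.6, 51.1 and 42.0 CPM with lenti-NC, without overlap. Its log2 difference was -0.57 (95% interval -1.53 to 0.39, adjusted p = 0.616). Ppargc1a had 30.9, 31.2 and 27.1 CPM with lenti-shTCF7L2 and 35.3, 38.7 and 34.5 CPM with lenti-NC, again without overlap, and a log2 difference of -0.28 (95% interval -1.20 to 0.64, adjusted p = 0.856). Esrrg stood at 62.7, 61.0 and 61.8 CPM with lenti-shTCF7L2 and at 77.7, 78.2 and 73.3 CPM with lenti-NC (log2 difference -0.31, adjusted p = 0.792). Ppara had 9.04, 9.45 and 6.77 CPM with lenti-shTCF7L2 and 10.96, 10.8 and 9.96 CPM with lenti-NC (log2 difference -0.33, adjusted p = 0.694). Neither overlapped the control range.

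The remaining members lay close to the control. Tfam had 28.8, 29.3 and 30.4 CPM with lenti-shTCF7L2, below the controls in each library, with a log2 difference of -0.12 (adjusted p = 0.828). Esrrb had 90, 88 and 74 expected counts with lenti-shTCF7L2, against 71, 73 and 72 with lenti-NC, overlapping in CPM (log2 difference 0.19, 95% interval -0.18 to 0.57). Esrra had 88.7, 77.4 and 79.1 CPM with lenti-shTCF7L2 and differed by -0.04 (95% interval -0.22 to 0.14), and Ppard had 129, 121 and 118 CPM and differed by 0.07 (95% interval -0.08 to 0.22). In all, 6 of the 9 members lay below the controls without overlap, against 21.0% of all genes.

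The test of lenti-shTCF7L2 against lenti-NC took its spread partly from the lenti-TCF7L2 libraries. Fitted on the 6 libraries compared alone, 5 members were lower, against 15.5% of all genes: Perm1, Ppargc1b (adjusted p = 8.62e-06), Esrrg (6.14e-05), Ppargc1a (0.00455) and Ppara (0.0488). Without lenti-TCF7L2 replicate 3, 3 were lower (Perm1, Ppargc1a and Ppargc1b), against 10.9% of all genes. The differences themselves hardly moved: that of Ppargc1b was -0.57 on the 6 libraries and -0.59 without lenti-TCF7L2 replicate 3. On the 6 libraries 7 of 9 fibroblast markers were lower and 1 was higher with lenti-shTCF7L2, and 3 of 11 cardiomyocyte markers were lower and 2 were higher. Over all 9 libraries 3 of 9 fibroblast markers were lower, against 2.32% of all genes. In that fit 1 smooth muscle marker (Cnn1, 0.59, adjusted p = 0.0118) and 1 macrophage marker (Csf1r, 1.32, adjusted p = 0.0263) were higher. Among all genes 3.64% were called in either direction there. The part of these cells in the members' values was not tested. Lenti-TCF7L2 and lenti-shTCF7L2 share the lenti-NC libraries as their control, so their differences from it are not independent.

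Set against each other, lenti-TCF7L2 and lenti-shTCF7L2 differed in 6 of the 9 tested members, all lower with lenti-TCF7L2, against 14.7% of all genes lower and 33.1% called in either direction. Without overlap in CPM, 8 members lay lower, against 23.2% of all genes. Esrrb fell by 2.66 on the log2 scale (SE 0.21, adjusted p = 3.86e-05), Ppargc1a by 1.59 (SE 0.43, adjusted p = 0.0204), Ppara by 1.57 (SE 0.32, adjusted p = 0.00543) and Perm1 by 0.76 (SE 0.11, adjusted p = 9.75e-04). The falls of Esrra, by 0.28 (adjusted p = 0.0234), and of Ppard, by 0.23 (adjusted p = 0.0285), were small. Esrrg, at -1.01 (adjusted p = 0.0547), and Ppargc1b, at -1.23 (adjusted p = 0.0587), did not pass, although their groups did not overlap, and Tfam differed by 0.05 (95% interval -0.31 to 0.41). Esrrg and Ppargc1b passed in DESeq2 (adjusted p 0.0135 and 0.0133) and without lenti-TCF7L2 replicate 2 or 3. The calls of Esrra, Ppard and Ppargc1a were each lost in at least 1 fit with a library left out (adjusted p up to 0.0891, 0.0914 and 0.0579), and with only the 6 libraries compared 3 members were lower, against 9.32% of all genes.

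Since the summed cardiomyocyte markers were lower with lenti-TCF7L2, each member was also set beside them. Relative to lenti-NC alone, the mean log2 CPM of the 11 listed markers stood at -1.06, -1.16 and -0.86 in the lenti-TCF7L2 libraries. It lay between -0.034 and -0.0049 in the lenti-shTCF7L2 libraries. The members were then placed on a log2 scale relative to that marker mean, and to lenti-NC. Esrrb stayed below the control range with lenti-TCF7L2 at -1.24, -0.81 and -1.91, as did Ppargc1a at -0.38, -0.24 and -2.76 and Perm1 at -0.17, -0.18 and -0.54. Those 3 members were therefore lower than the markers' mean difference in every lenti-TCF7L2 library. The single markers' log2 differences in the edgeR fit ran from -1.62 to -0.49. That of Perm1, -1.34, lay within this range, and those of Esrrb (-2.46) and Ppargc1a (-1.87) lay below it. In replicates 1 and 2, Ppargc1a stood at -1.44 and -1.39 against the lenti-NC mean alone.

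Esrrg at -0.27, 0.51 and -1.66, Ppara at -0.82, -0.09 and -1.97 and Ppargc1b at -0.78, 0.14 and -2.53 overlapped the lenti-NC range on this scale. Replicate 2 lay within that range for Ppara and above it for Esrrg and Ppargc1b, and the other lenti-TCF7L2 replicates lay below it. Esrra (0.61 to 0.75), Ppard (0.63 to 1.05) and Tfam (0.70 to 1.14) lay above it, having differed less than the markers. With lenti-shTCF7L2, Perm1 stood at -0.56 ± 0.17 on this scale, Ppargc1b at -0.55 ± 0.16, Ppara at -0.32 ± 0.27, Esrrg at -0.28 ± 0.02 and Ppargc1a at -0.26 ± 0.12 (SD, n = 3 each), all lower without overlap with lenti-NC. Tfam at -0.10 ± 0.03 was also lower without overlap, and Esrrb at 0.20 ± 0.15 was higher without overlap. These relative levels were not tested, and whether a change in the number of cardiomyocytes took part was not tested.

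**Figure D3:**
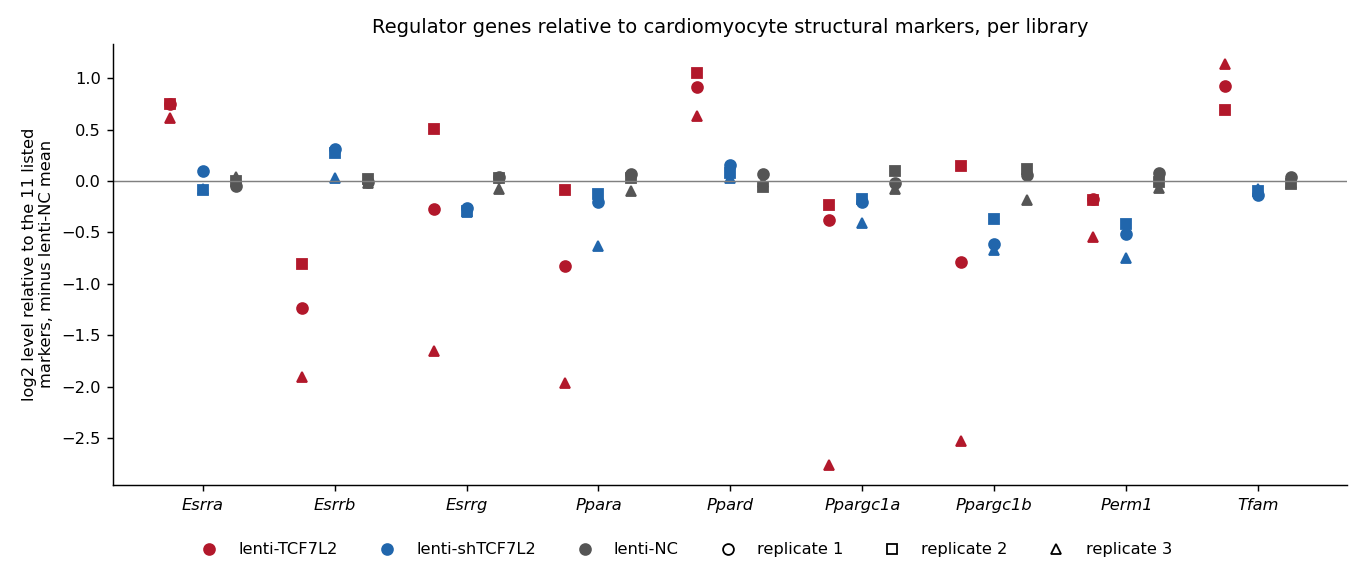
Log2 level of each tested regulator gene relative to the mean of the 11 listed cardiomyocyte structural markers, with the lenti-NC mean at 0 (vertical axis), per library; colours mark the group and symbols the replicate. With lenti-TCF7L2, Esrrb (-0.81 to -1.91), Ppargc1a and Perm1 lie below the lenti-NC points in all 3 libraries, and Esrra, Ppard and Tfam lie above them.

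Most of the listed genes that ERRs and PGC-1 are known to switch on were lower with lenti-TCF7L2. Of 33 listed genes of oxidative metabolism, 25 were lower and the other 8 did not pass, with a median log2 difference of -0.65 beside 0.03 over all genes tested. The cardiomyocyte structural markers had a median of -0.93, with 10 of 11 lower. The part of the cell make-up of the cultures in the falls of these targets was not tested. Slc2a4, the insulin-responsive glucose transporter, averaged 19.2 ± 2.63 CPM with lenti-TCF7L2 and 67.5 ± 3.42 CPM with lenti-NC (log2 difference -1.81, adjusted p = 2.64e-05). Ndufs1, a core subunit of respiratory complex I, averaged 156 ± 4.88 CPM with lenti-TCF7L2 and 318 ± 9.66 with lenti-NC (-1.02, adjusted p = 2.64e-05). Pdha1, of the pyruvate dehydrogenase complex, fell by 1.01 (adjusted p = 2.75e-05). Among all genes tested 13.8% were lower. Without lenti-TCF7L2 replicate 3, 32 of the 33 were lower, against 21.5% of all genes, and with only the 6 libraries compared 21 were lower, against 9.07% of all genes. With lenti-shTCF7L2, 1 of the 33 was lower over all 9 libraries, near the 2.32% of all genes. It was Sdha of complex II at -0.30 (adjusted p = 0.0252). With only the 6 libraries compared 13 were lower, against 15.5% of all genes, and 1 was higher.

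Of 25 tested PPAR targets of lipid metabolism, 9 were lower and 5 higher with lenti-TCF7L2, beside 13.8% lower and 18.0% higher among all genes, so that the number higher was near the background. Their median log2 difference was -0.24. Without lenti-TCF7L2 replicate 3, 14 were lower, against 21.5% of all genes, and 5 were higher. Cd36, a fatty acid uptake protein, averaged 49.6 ± 2.90 CPM with lenti-TCF7L2 and 114 ± 9.59 with lenti-NC (-1.20, adjusted p = 5.40e-05). Acsl1, which activates long-chain fatty acids, fell by 1.06 (adjusted p = 5.40e-05). Angptl4, a secreted inhibitor of lipoprotein lipase and a known target of PPAR-delta, rose by 2.28 to 93.8 ± 10.8 CPM with lenti-TCF7L2, against 19.3 ± 5.16 with lenti-NC (adjusted p = 1.35e-04). With lenti-shTCF7L2 1 of the 25 was lower, near the 2.32% of all genes. It was Pnpla2, a triglyceride lipase, at -0.38 (adjusted p = 0.0203). With only the 6 libraries compared 10 were lower, against 15.5% of all genes, and 2 were higher.

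Of 21 mitochondrial DNA and biogenesis factors, the company of Tfam, 4 were lower with lenti-TCF7L2 and the other 17 did not pass, beside 13.8% lower among all genes. Their median was -0.03. Without replicate 3, 7 were lower, against 21.5% of all genes, and 1 was higher. The 4 were the mitochondrial fusion genes Mfn1 (-0.79, adjusted p = 9.95e-05) and Opa1 (-0.71, adjusted p = 0.00356), the fission gene Dnm1l (-0.90, adjusted p = 0.00912) and the mitochondrial transcription factor Tfb2m (-0.32, adjusted p = 0.0401, named after its value was seen). In lenti-shTCF7L2 cultures edgeR called 0 of these 21 (2 at an unadjusted p under 0.05), and DESeq2 likewise called 0. With only the 6 libraries compared 2 were lower, a share under the 15.5% of all genes.

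A list of other nuclear receptors, which holds retinoid X receptors but is not limited to partners of PPAR or ERR, was also followed. It gave 6 lower and 4 higher of 19 tested with lenti-TCF7L2, with a median of 0.16. The number higher was near the 18.0% of all genes, of which 13.8% were lower. Rxrb, a retinoid X receptor, averaged 54.4 ± 0.960 CPM with lenti-TCF7L2 and 32.7 ± 1.22 with lenti-NC (0.74, adjusted p = 1.85e-04). Nr4a1, an immediate early orphan receptor, rose by 0.87 (adjusted p = 2.26e-04) and Rarg, a retinoic acid receptor, by 0.58 (adjusted p = 3.65e-04). Among the 6 lower was Nr1d1, a haem-binding repressor of the circadian clock, at -0.43 (adjusted p = 0.00190). Another was Nr3c2 at -1.25 (adjusted p = 0.00229), named after its value was seen. With lenti-shTCF7L2 Nr1d1 also fell, by 0.62 (adjusted p = 0.00283), and Nr4a1 also rose, by 0.43 (adjusted p = 0.0326). No other gene of this list was called there, and 3.64% of all genes were called in either direction. With only the 6 libraries compared 7 of the 19 were lower, against 15.5% of all genes, and 3 were higher.

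Among 21 coactivators and corepressors, 3 were lower and 1 was higher with lenti-TCF7L2, with a median of -0.28. Calls in either direction were no more frequent than the 31.8% among all genes, and those lower were near the 13.8%. Without replicate 3 the median was -0.11, with 7 lower, against 21.5% of all genes, and 2 higher. With the offset for gene length the median was -0.017, with 4 lower and 4 higher. Carm1, an arginine methyltransferase that acts as a coactivator, rose by 0.39 (adjusted p = 0.00161). Prox1, a homeodomain protein that can repress ERR-alpha in mouse liver, fell by 1.68 (adjusted p = 0.0341) and lost the call in 8 of 20 alternatives. Tbl1xr1, a subunit of corepressor complexes, fell by 0.41 (adjusted p = 0.0237), but differed by -0.05 with the offset for gene length (adjusted p = 0.712). In lenti-shTCF7L2 cultures edgeR called 0 of them over all 9 libraries (3 at an unadjusted p under 0.05), and 1 was lower in DESeq2. With only the 6 libraries compared 7 were lower, against 15.5% of all genes, and 4 were higher.

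Of 29 upstream kinases and factors known to act on PGC-1 or its gene, 4 were higher and 3 lower with lenti-TCF7L2, with a median of -0.30. In either direction the calls were no more frequent than the 31.8% among all genes. Without replicate 3 the median was -0.17, with 10 lower, against 21.5% of all genes, and 4 higher. Myc averaged 43.0 ± 2.02 CPM with lenti-TCF7L2 and 23.4 ± 0.966 with lenti-NC (0.88, adjusted p = 1.84e-04). Kat2a, the acetyltransferase that is known to inhibit PGC-1 alpha, rose by 0.64 (adjusted p = 4.02e-04), and Prkag2, the cardiac gamma subunit of AMP-activated kinase, fell by 0.67 (adjusted p = 3.67e-04). With lenti-shTCF7L2 Myc rose by 0.47 (adjusted p = 0.0203) and Kat2a by 0.34 (adjusted p = 0.0433). No other gene of this list was called there, and 3.64% of all genes were called in either direction. With only the 6 libraries compared 6 of the 29 were lower, against 15.5% of all genes, and 4 were higher. Of the list genes called with lenti-shTCF7L2 over all 9 libraries, Nr1d1 kept its call under all 20 alternatives, whereas Sdha, Pnpla2, Nr4a1, Myc and Kat2a each lost it in 6 to 9 of them.

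**Figure D4:**
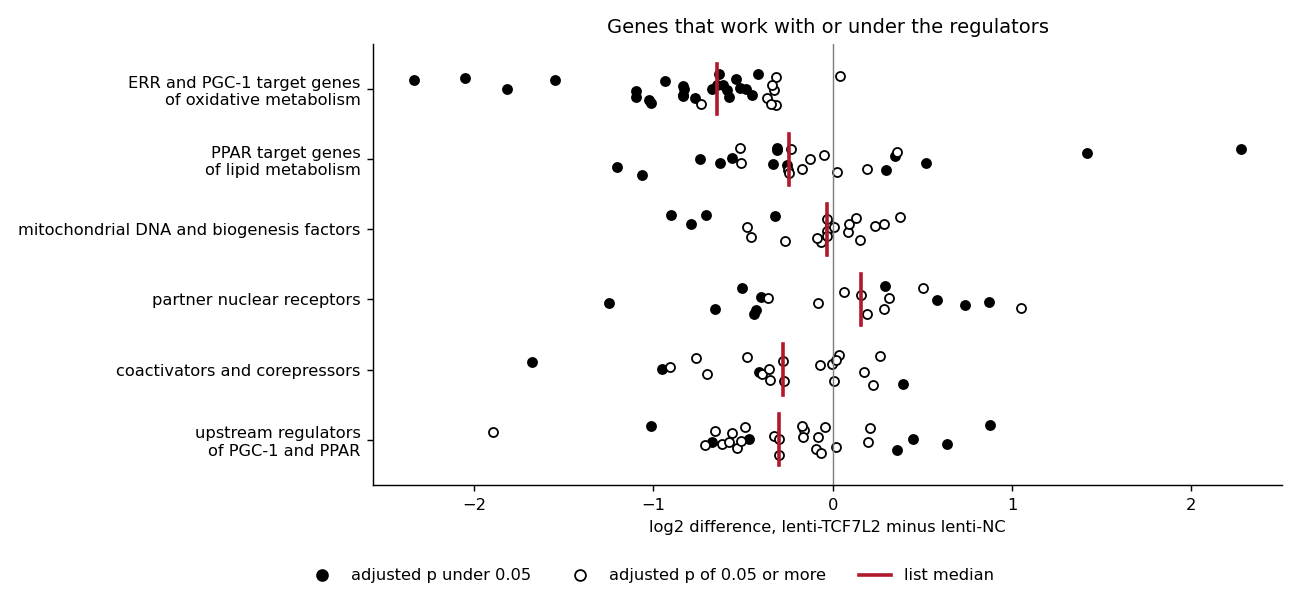
Log2 difference, lenti-TCF7L2 minus lenti-NC, of every tested gene in 6 lists of targets, biogenesis factors, nuclear receptors, coregulators and upstream regulators (points, filled where the adjusted p is under 0.05). The list median is a red line. The list labelled partner nuclear receptors is not limited to partners of PPAR or ERR. The ERR and PGC-1 targets lie almost wholly left of 0 (median -0.65), and the PPAR targets run from -1.20 to 2.28.

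Across the 9 libraries, the members fell into those that moved much and those that moved little. The root-mean-square difference of log2 profiles, each centred on its lenti-NC mean, was smallest between Esrra and Ppard (0.142), and among the genes with larger falls it was 0.262 between Ppara and Ppargc1b and 0.269 between Ppargc1a and Ppargc1b. The largest was 1.41, between Ppargc1a and Tfam. The libraries and the scaling are shared between all genes, so these are descriptions.

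For each tested member, 9698 other genes (9699 for Esrrb) with a mean of at least 5 CPM were ranked by the same measure over the 9 libraries. Other members with such a mean were among them. Gpr22, an orphan receptor of the heart, was nearest to Esrrb (0.211), and Rxfp1, the relaxin receptor, was nearest to Esrrg (0.0908). Ppara was nearest to Ryr2, the calcium release channel of the sarcoplasmic reticulum (0.202), and to Ppp1r3a, a glycogen-targeting phosphatase subunit (0.212). Nearest to Ppargc1a stood Tecrl (0.144) and Nebl, a Z-disc protein (0.160), and nearest to Ppargc1b stood Akap6, an anchoring protein of protein kinase A (0.146), and Smad9 (0.186). Rasgrp3 (0.108) and Lims2 (0.148) lay nearest to Perm1. Of the little-moved members, Esrra was nearest to Hadha, a fatty acid oxidation enzyme (0.0560), Ppard to Swt1 (0.0306) and Tfam to Nudcd2 (0.0433).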

How the data were processed

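Per the file headers, the authors deposited a table for each library that holds expected counts (estimated fragments, not always whole), FPKM values scaled to gene length and library size, and gene lengths. The submitters' processing notes name HISAT2, Bowtie2, RSEM 1.3.1, DESeq2 1.4.5 and build rn6, with no roles. Whether counting used the strand is not given in the sources used here, so antisense reads cannot be told apart. Groups came from the sample titles; in the file names lenti-NC appears as GFP and lenti-TCF7L2 as WT.

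Expected counts were rounded, filtered with filterByExpr (11761 genes kept, 2846 set aside), scaled with TMM and tested with edgeR 4.0.16 in R 4.3.3 (quasi-likelihood, 2-sided, 1 fit over 9 libraries, group as the only term), with Benjamini-Hochberg adjustment over all genes tested and a threshold of 0.05. Each SE is the log2 difference over the root of its F. The fit's coefficient of biological variation was 14.9%. Log2 CPM had a prior count of 2. A floor of 3 counts, covering counting error only, is 0.179 to 0.202 CPM per library. No pair of libraries within a group agreed within sampling noise (chi-square per degree of freedom at least 2.37). The procedure was tested on simulated data.

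Named genes were the members, Tcf7l2, per pathway list the 3 called with the smallest adjusted p for lenti-TCF7L2 against lenti-NC and those called for lenti-shTCF7L2, and nearest profiles. The members and lists were chosen with earlier results of these data known. Alternatives were RLE scaling, no filter, a stricter filter (10 counts in 6 libraries), DESeq2 1.42.0, limma 3.58.1 on FPKM (log2, pseudocount 1 or 0.1), a replicate block, only the 6 libraries compared, a gene-length offset (lowess span 0.3) and each library left out. Alternatives for the lists, and the cAMP response element, were chosen after seeing the data. Protein sequences and rn6 positions were not used here.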

Additional observations from a re-analysis of the deposited data

How the results depend on the processing

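With lenti-TCF7L2 against lenti-NC, the number of members called lower ran from 5 to 8 over all alternatives, beside 7. With each library left out it was 5 to 8, and all genes called were 2430 to 5503, beside 3741, with 2430, 2458 and 2486 without lenti-NC replicate 1, 2 or 3. With only the 6 libraries compared, all genes called were 2321. For lenti-shTCF7L2 against lenti-NC, members called were 1 over all 9 libraries, 5 with only the 6 libraries compared, 4 with the length offset and no lenti-TCF7L2 replicate 3, and 0 to 3 with each library left out (0 in edgeR without any 1 lenti-NC or lenti-shTCF7L2 library, 3 without lenti-TCF7L2 replicate 3). All genes called were 428, against 651 in DESeq2, 3294 with only the 6 libraries compared, 991 with the length offset, 2611 with that offset and no lenti-TCF7L2 replicate 3, and 88 to 2056 with each library left out (2056 without lenti-TCF7L2 replicate 3). Between lenti-TCF7L2 and lenti-shTCF7L2, members called were 6, against 3 with only the 6 libraries compared and 3 to 8 with each library left out (3 without lenti-shTCF7L2 replicate 1), and all genes called were 3890, against 5938 with the length offset and no lenti-TCF7L2 replicate 3 and 2649 to 5405 with each library left out. For lenti-TCF7L2 against lenti-NC with only the 6 libraries compared, 5 PPAR targets were lower and 2 higher, 3 other nuclear receptors lower and 3 higher, and 1 coactivator higher. Among all genes 9.07% were lower in that fit.

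A replicate block gave 7, 1 and 8 members and 3460, 244 and 3649 genes in the 3 comparisons. Residuals of same-numbered libraries correlated from -0.067 to 0.151, over 0.1 in 2 of 9 pairs, and those of differently numbered libraries from -0.159 to 0.111. These ranges overlap and the labels are silent, so whether the numbers pair the samples cannot be decided here.

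Tfam changed sign in 4 cases: to 0.081 against lenti-NC without lenti-TCF7L2 replicate 2 (range -0.31 to 0.081 with each library left out), and, against lenti-shTCF7L2, to -0.063 with the length offset, -0.18 with that offset and no replicate 3, and -0.17 without replicate 3 (range -0.17 to 0.21 with each library left out). The cause was not tested. Depth limits Rxrg, which stayed at 1 to 8 counts.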
